A study of Homo sapiens with 9 samples.

Results

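The comparison described here is the induction of TCF7L1 while human embryonic stem cells were moved towards primitive streak. It sets 3 arrays of cells kept 48 h in primitive streak differentiation medium (PS medium) to which doxycycline, 1 ug/ml, was added for 48 h, against 3 arrays of the same cells kept 48 h in PS medium with no doxycycline. These 6 arrays, of 9 in all, were chosen by their titles. The other 3 are untreated cells in mTeSR1, a medium that keeps the cells pluripotent, and they show what PS medium alone changed. All 9 samples are of H9, an established human embryonic stem cell line, in the transgenic derivative H9-TCF7L1, so the untreated and PS groups carry the transgene too. None of the 3 groups received doxycycline without PS medium, and none is H9 without the transgene, so an effect of the drug itself cannot be told apart from that of TCF7L1. Nothing in the labels tells whether replicates were grown separately, and the p-values below reflect the scatter of these samples only, part or all of which may be technical. The study's stated aim was to find candidate TCF7L1 targets through gain of function.

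TCF7L1 belongs to the TCF/LEF family, the DNA-binding factors at the end of the canonical Wnt pathway. In embryonic stem cells it acts mostly as a repressor, and stabilised beta-catenin relieves or displaces it at Wnt target genes. The primitive streak is the embryonic structure through which cells leave the pluripotent epiblast to form mesoderm and endoderm, under Wnt, Nodal and BMP signals, and they lose epithelial junctions on the way. Amnion and trophectoderm, extraembryonic epithelia marked by GATA and AP-2 factors, can also arise from human pluripotent cells exposed to BMP.

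RNA was measured on Affymetrix whole-transcript arrays, and the deposited values are intensities on a linear scale per probe set, the group of probes that reads a gene. Of 33297 probe sets, 19460 had exactly 1 gene symbol and were tested. They stand for 18417 genes, each given by its brightest probe set. Array medians lay between 343.3 and 358.1, and replicates correlated at 0.989 to 0.997. Fold changes and log2 differences below are on the log2(value + 16) scale, which understates the change of dim genes. Adjusted p-values are from limma over all tested probe sets, and a gene is called higher or lower where that value is under 0.05. Errors after a log2 difference are standard errors with n = 3 arrays per group.

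TCF7L1 (probe set 8043114) was read at 3718, 3878 and 3572 without treatment and at 1275, 1542 and 1611 in PS medium. With doxycycline it was read at 13100.2, 12433 and 2699. All doxycycline arrays were above all PS arrays, but the third lay far below the others and under every untreated array. The rise over PS medium was 5.14-fold (log2 2.36 ± 0.46, adjusted p = 0.0043), and 8.61-fold without doxycycline replicate 3 (adjusted p = 2.33e-08). The probe set does not separate the transgene from the cells' own gene. Because of this array, the main results are given with and without it.

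**Figure D1:**
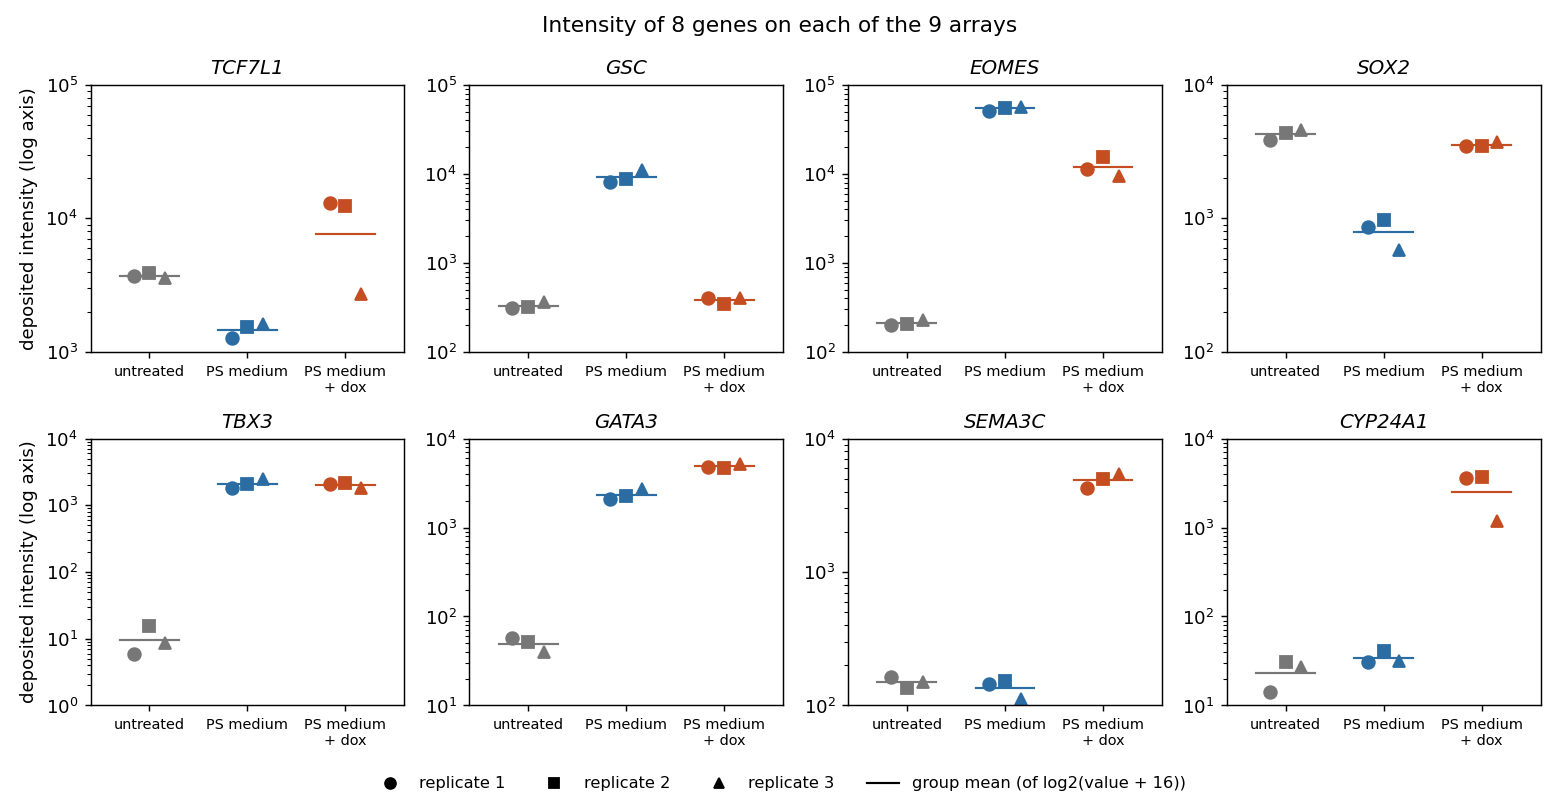
Deposited intensity (log axis) of 8 genes on each of the 9 arrays, with a marker shape per replicate number and a line at the group mean of log2(value + 16). GSC fell to near its untreated readings with doxycycline, EOMES fell part of the way, TBX3 stayed and GATA3 rose further. SOX2 returned towards untreated, and SEMA3C and CYP24A1 rose in the doxycycline group. Of the 3 doxycycline arrays, replicate 3 read lowest for TCF7L1, CYP24A1, EOMES and TBX3, by the most for TCF7L1 and CYP24A1.

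With doxycycline 3225 of 19460 probe sets were called, 16.6% of those tested, with 1613 higher (8.29%) and 1612 lower (8.28%). At least 2-fold changes were found in 331 higher (1.7%) and 299 lower (1.54%) probe sets. PS medium itself had changed 29.1% of probe sets against untreated cells, raising 2788 (14.3%) and lowering 2866 (14.7%). Cells in PS medium with doxycycline differed from untreated cells in 29.3%, with 2918 higher (15.0%) and 2792 lower (14.3%). In 29.6% of probe sets the doxycycline and PS arrays did not overlap. These 3 comparisons share arrays, so the classes that follow describe the same measurements from several sides. Counts of list members below are to be set against the 8.29% higher and 8.28% lower over all probe sets. The 36 lists hold 1073 entries for 948 genes, so some genes are counted in several lists. CER1, HHEX and FOXA2 are on the organizer and endoderm lists, GATA4 and GATA6 on the endoderm and cardiac lists. TFAP2A and DLX3 are on the amnion and surface ectoderm lists.

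PS medium raised 559 genes by at least 2-fold. Of these, 331 (59.2%) were lower with doxycycline, 206 (36.9%) were held within 2-fold, and 53 (9.48%) rose further. Held means that the 95% interval of the difference lay within 2-fold either way, which was true of 93.6% of all probe sets tested. A gene can be both held and called lower, and CDH2 and FZD8 are examples. Of the 331 genes lower with doxycycline, 207 were still above untreated cells, 5 were below, and 119 were not called against them. For 181 of the 331 the 95% interval of the difference from untreated lay within 2-fold either way. The median difference of all 331 from untreated was 1.69 on the log2 scale in PS medium and 0.63 with doxycycline. A further 97 genes, 0.527% of the 18417, were raised with doxycycline only, meaning at least 2-fold over both other groups and not raised by PS medium. Of 483 genes that PS medium lowered at least 2-fold, 184 (38.1%) were higher with doxycycline.

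**Figure D2:**
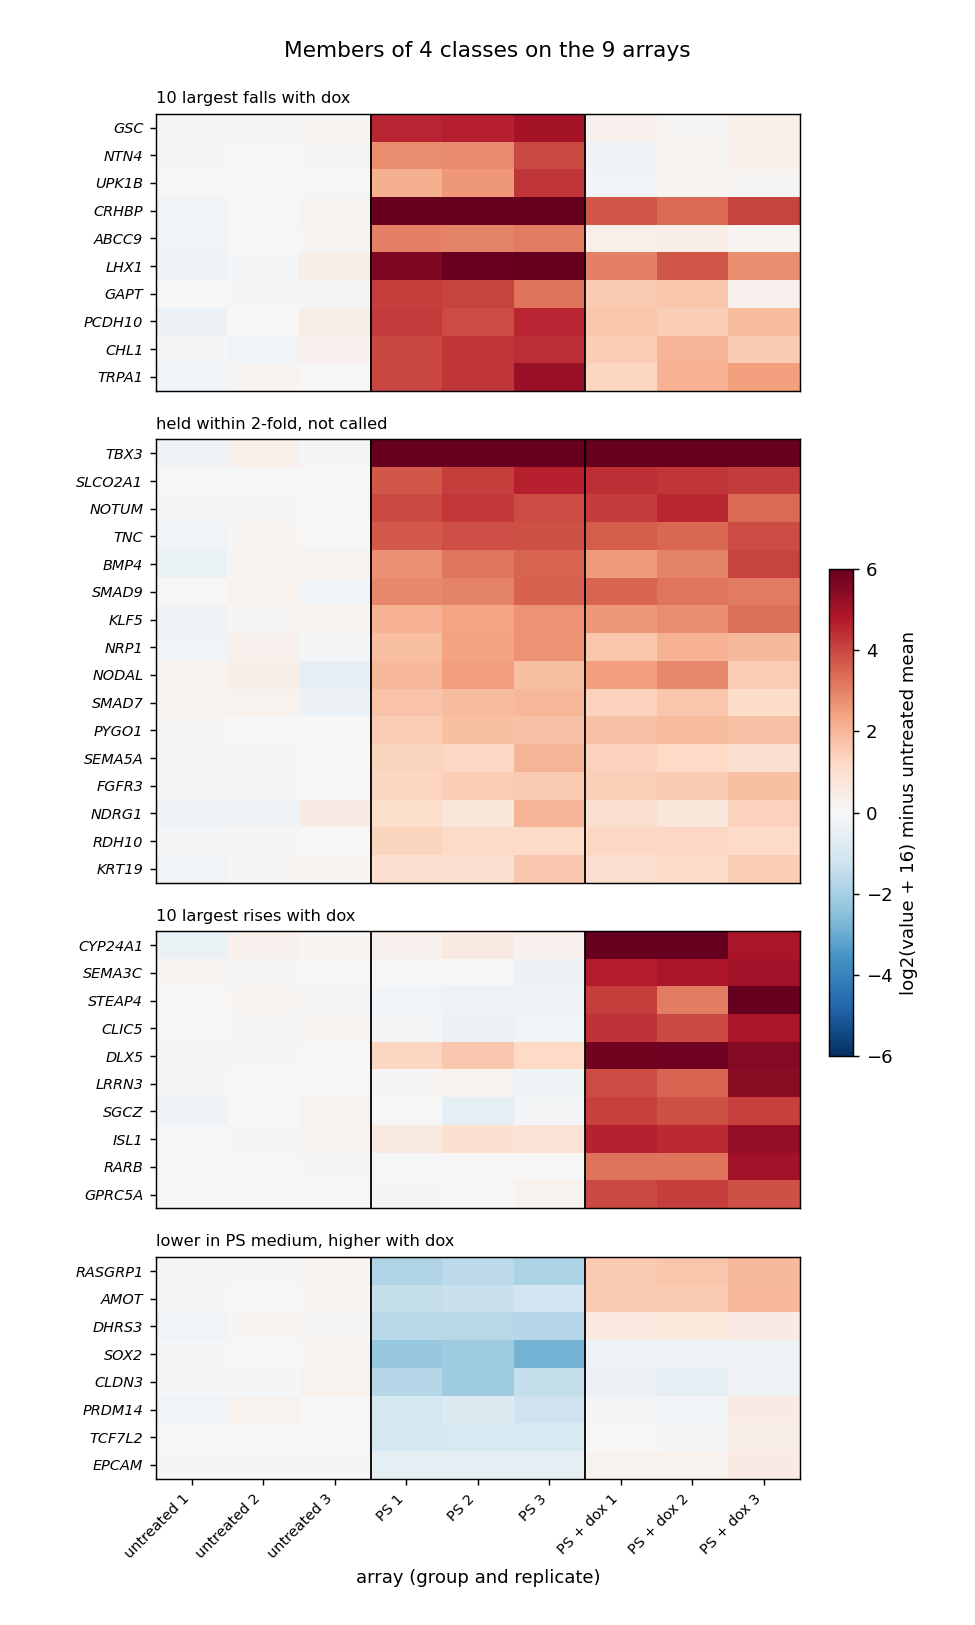
Log2(value + 16) minus the untreated mean, as colour (drawn at the limit beyond 6), for members of 4 classes (rows) on the 9 arrays (columns). The 10 largest falls are high in PS medium and pale with doxycycline, the held genes are about as high with doxycycline as without, and the 10 largest rises are high in the doxycycline columns; the 8 genes of the last block were chosen after their values were seen.

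Genes of the organizer, the anterior end of the streak, were lower in 13 of 23 measured cases and higher in 1, with a median log2 difference of -0.94 against -0.004 over all probe sets. GSC, the homeobox factor goosecoid, gave the largest fall of the comparison. GSC was read at 308, 317 and 363 without treatment, 8117, 8771 and 10944 in PS medium and 402, 343 and 408 with doxycycline. It was 23.1-fold lower (log2 -4.53 ± 0.12, adjusted p = 4.57e-09) and its doxycycline arrays sat within 2-fold of the untreated ones. LHX1, a LIM homeobox factor of the organizer, was read at 2789, 3550.0 and 3942 in PS medium and 448, 754 and 382 with doxycycline, a 6.53-fold fall that left it 9.06-fold above untreated cells. EOMES, the T-box factor that opens mesoderm and endoderm fates, was read at 50981, 55273 and 57102 in PS medium and 11479, 15554 and 9529 with doxycycline, 4.55-fold lower, and remained 52.6-fold above untreated. MIXL1, a streak homeobox factor, was read at 8223, 8141 and 8309 in PS medium and 2761, 3162 and 2097 with doxycycline. MIXL1 was thus 3.11-fold lower (log2 -1.64 ± 0.12), with no overlap between the groups. CER1, a secreted antagonist of Nodal, BMP and Wnt, was 2.07-fold lower. The member that rose was NOG, the BMP antagonist noggin. NOG was read at 117, 85.3 and 124 without treatment, 953, 1086 and 2022 in PS medium and 8494, 9930.1 and 6386 with doxycycline, 6.29-fold higher (log2 2.65 ± 0.25).

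Posterior streak and caudal genes were lower in 14 of 24 cases and higher in 1 (median log2 -0.53). FGF17, a streak FGF ligand, was read at 6827, 10117 and 17533 in PS medium and 1251, 3320.2 and 1726 with doxycycline, 5.49-fold lower. CYP26A1, which breaks down retinoic acid, was 4.4-fold lower and MESP2, a factor of early paraxial mesoderm, 4.12-fold lower. TBX6, a T-box factor of paraxial mesoderm, was 1.94-fold lower. All 10 members that PS medium had raised at least 2-fold were lower with doxycycline, against 59.2% of all 559 genes so raised. Both comparisons use the same PS arrays, which favours a fall in genes chosen this way, so the count is a description. TBXT, the T-box factor brachyury, changed less. TBXT was read at 155, 174 and 181 without treatment, 724, 571 and 443 in PS medium and 396, 391 and 222 with doxycycline, the third doxycycline array being the lowest of its group. Its 1.71-fold fall (log2 -0.77 ± 0.21, adjusted p = 0.03) missed the threshold without that array (log2 -0.51, adjusted p = 0.068).

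Definitive endoderm genes were lower in 11 of 21 cases and higher in 2 (median log2 -0.88). SOX17, a defining endoderm factor, was read at 229, 237 and 257 without treatment, 3518, 3127 and 5436 in PS medium and 830.4, 989.8 and 1188 with doxycycline. It was 3.89-fold lower (log2 -1.96 ± 0.18) and 3.92-fold above untreated. GATA4 and GATA6, zinc finger factors of endoderm and heart, were 4.3-fold and 2.92-fold lower and stayed 41.0-fold and 89.6-fold above untreated cells, where GATA6 was near 0. TRPA1, a cation channel, was 5.78-fold lower, PRDM1, a zinc finger repressor, 3.38-fold and CXCR4, a chemokine receptor used to mark endoderm, 2.92-fold. HHEX, a homeobox factor of anterior endoderm, was uneven in PS medium at 931, 5046 and 5448, against 764, 793 and 809 with doxycycline. Its fall (adjusted p = 0.0251) missed the threshold without doxycycline replicate 3 (adjusted p = 0.0533), and its log2 change was -2.71 without PS replicate 1. FOXA2, a forkhead factor of endoderm and organizer, was read at 282, 409 and 1094 in PS medium and 157, 226 and 263 with doxycycline, and that difference was not called (log2 -1.19 ± 0.37, adjusted p = 0.0518). With the replicate number as a block it was called lower with the same change (adjusted p = 0.0159), and it was also called after quantile normalization (adjusted p = 0.0495), after median centring (0.0425), without the dimmest 25% of probe sets (0.0481) and without PS replicate 1 (0.0104).

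Cardiac and lateral mesoderm genes were split, with 8 of 32 lower, 3 higher and a median of -0.08. Lower members included PDGFRA, a PDGF receptor of early mesoderm, read at 713, 865 and 929.6 in PS medium and 175, 245 and 167 with doxycycline (4.06-fold lower). APLNR, the apelin receptor, was read at 33414, 38559.6 and 39251 in PS medium and 7506, 11731 and 12026 with doxycycline, 3.62-fold lower and still 45.4-fold above untreated. After quantile normalization the log2 falls of EOMES and APLNR were -0.88 and -0.91, both still called. KDR, the VEGF receptor, was 2.59-fold lower and fell under its untreated readings. HAND1, which marks extraembryonic mesoderm and early heart, was read at 2550.4, 3506 and 4912 in PS medium and 2029, 2363 and 3014 with doxycycline, and was not called (log2 -0.53 ± 0.31, adjusted p = 0.324). Higher members were ISL1, described with the new rises below, and ACTC1, cardiac actin. ACTC1 was read at 1262, 1556 and 1328 without treatment, 2192, 2838 and 2162 in PS medium and 8422, 10115 and 9199 with doxycycline, 3.86-fold higher. Actin genes are near-identical in sequence, so its probes may share signal with ACTA1, ACTA2 and ACTG2, which also rose. The third higher member was MEF2C.

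Mesenchymal genes were lower in 13 of 32 cases and higher in 3 (median log2 -0.14). Among repressors of epithelial genes, SNAI1 was 3.9-fold lower, SNAI2 2.42-fold and ZEB1 2.52-fold. The probe sets of ZEB2, a relative of ZEB1, disagreed: one was 3.05-fold lower (log2 -1.61, limma adjusted p = 0.000146) and the other was not called (log2 -0.12, adjusted p = 0.624). SNAI1 was read at 334, 346 and 349 without treatment, 1659, 1614 and 1746 in PS medium and 399.6, 477 and 379 with doxycycline, so most of its PS rise was gone. COL5A2, a fibrillar collagen, was read at 1479.7, 1478 and 2257 in PS medium and 262, 309 and 295 with doxycycline, 5.65-fold lower. CDH2, N-cadherin, was 1.65-fold lower. SNAI2 was read at 1511, 1879 and 2745 in PS medium and 459.7, 859.7 and 1344 with doxycycline, and its call was lost without PS replicate 3 (adjusted p = 0.0542). Members that rose were FN1, TGFB2 and POSTN. FN1, the matrix protein fibronectin, was read at 1430.1, 1575 and 1448 without treatment, 5493, 4672 and 5625 in PS medium and 12504, 10928 and 12965 with doxycycline, 2.3-fold higher than in PS medium with no overlap.

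Other large falls were of varied function. NTN4, a netrin, was read at 452, 496 and 523 without treatment, 3422, 3601 and 7972 in PS medium and 425, 555 and 608 with doxycycline (8.58-fold lower). UPK1B, a uroplakin, was read at 514, 725 and 2334 in PS medium and 91.3, 120.2 and 111 with doxycycline (7.93-fold, a log2 change of -2.35 without PS replicate 3) and ABCC9, a subunit of ATP-sensitive potassium channels, at 356, 351 and 383 in PS medium and 41.8, 44.3 and 34.0 with doxycycline (6.79-fold). These 3 ended within 2-fold of untreated cells on average. CRHBP, which binds corticotropin-releasing hormone, was read at 18422, 14229.7 and 20435 in PS medium and 2252, 1803 and 2829 with doxycycline, 7.71-fold lower but 13.3-fold above untreated. The adhesion proteins PCDH10 and CHL1 were 5.89-fold and 5.79-fold lower, and GAPT, an adaptor protein, was 6.27-fold lower.

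Part of the response to PS medium was kept. TBX3, a T-box factor, was read at 5.94, 15.7 and 8.51 without treatment, 1812, 2105 and 2451 in PS medium and 2094, 2161 and 1795 with doxycycline. The groups overlapped, and the difference was -0.07 on the log2 scale with a 95% interval from -0.39 to 0.26. NOTUM, a secreted enzyme that inactivates Wnt ligands, was read at 1489, 1803 and 1454 in PS medium and 1756, 2235 and 1016 with doxycycline (log2 0.01, interval -0.48 to 0.50). TNC, the matrix protein tenascin C, was read at 1845, 2079.9 and 2044 in PS medium and 1793, 1558 and 2153 with doxycycline (interval -0.39 to 0.13). The prostaglandin transporter gene SLCO2A1 was read at 1874, 2562 and 3576 in PS medium and 3044, 2827 and 2601 with doxycycline (interval -0.26 to 0.52). BMP4, a BMP ligand, was read at 1343, 1866 and 2299.6 in PS medium and 1200.3, 1594 and 3436 with doxycycline, with the third doxycycline array the highest (interval -0.67 to 0.79). SMAD9, which carries BMP signals, had an interval from -0.25 to 0.51, RDH10, which makes retinal from retinol, from -0.17 to 0.18, and FGFR3, an FGF receptor, from -0.07 to 0.39. NODAL, a TGF-beta family ligand of the streak, was read at 92.4, 107 and 53.1 without treatment, 374, 536 and 326 in PS medium and 531, 700.4 and 267 with doxycycline. Its interval stayed within 2-fold with all arrays and passed that limit without the third doxycycline array, the lowest of its group.

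Of the 10 largest rises, 8 were of genes that PS medium had not raised. CYP24A1, the enzyme that breaks down active vitamin D, was read at 14.3, 30.7 and 27.3 without treatment, 31.1, 40.9 and 31.4 in PS medium and 3564, 3667 and 1169.7 with doxycycline. This 49.8-fold rise over PS medium (log2 5.64 ± 0.36, adjusted p = 2.92e-06) was the largest of the comparison. SEMA3C, a secreted guidance cue, was read at 162, 135 and 151 untreated, 145, 153 and 112 in PS medium and 4248, 4972 and 5428 with doxycycline, 32.2-fold higher and much the same on all 3 doxycycline arrays. GPRC5A, an orphan receptor known to respond to retinoic acid, was read at 77.9, 75.3 and 88.6 in PS medium and 1354, 1578 and 1235 with doxycycline, 14.5-fold higher. SGCZ, a sarcoglycan, and CLIC5, a chloride intracellular channel protein, were 19.0-fold and 24.0-fold higher. STEAP4, a metalloreductase, was read at 24.7, 21.2 and 22.4 in PS medium and 789, 363 and 2909 with doxycycline, 24.9-fold higher with a wide spread. LRRN3, a leucine-rich repeat membrane protein, was 19.1-fold higher, and RARB, a retinoic acid receptor, 14.6-fold higher at 696, 691 and 2465 against 57.5, 59.7 and 56.4. On STEAP4, LRRN3 and RARB the third doxycycline array read highest, and without it STEAP4 was 14.3-fold and RARB 9.61-fold higher. Without doxycycline replicate 2, where STEAP4 read lowest, its log2 rise was 5.31.

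The rises included many genes of amnion and trophectoderm. Of 27 measured, 15 were higher and 2 lower with doxycycline (median log2 0.31). Of the 9 that PS medium had raised at least 2-fold, 6 rose further, against 9.48% of all 559 genes so raised. The 2 lower members were also among those 9, and HAND1, which is on this list too, was not called. ISL1, a LIM homeobox factor of amnion and of heart progenitors, was read at 30.2, 26.8 and 37.1 without treatment, 52.7, 72.8 and 66.1 in PS medium and 1149, 1027 and 1780.1 with doxycycline, 16.3-fold higher (log2 4.03 ± 0.18). GATA3, a zinc finger factor of trophectoderm and amnion, was read at 56.9, 51.7 and 39.6 untreated, 2074, 2272 and 2690.4 in PS medium and 4831, 4709 and 5175 with doxycycline. GATA3 was 2.09-fold above PS medium and 75.7-fold higher than in untreated cells. TFAP2A, an AP-2 factor, was read at 191, 207 and 207 untreated, 9636, 9199 and 6483 in PS medium and 16603, 18260.1 and 16479 with doxycycline, 2.05-fold higher than in PS medium. TFAP2C, a related factor, and GATA2 were 2.72-fold and 2.01-fold higher. DLX3, a homeobox factor, was read at 68.3, 69.2 and 76.5 in PS medium and 525, 626 and 381 with doxycycline (5.92-fold), and EPAS1, a hypoxia-inducible factor subunit, was 4.72-fold higher. IGFBP5, which binds insulin-like growth factors, was read at 28.3, 33.6 and 24.5 in PS medium and 454, 277 and 669.7 with doxycycline, 10.2-fold higher. KRT7, a keratin, and VTCN1, an immune checkpoint ligand, were 3.2-fold and 2.76-fold higher, with the highest reading on the third doxycycline array. PS medium raised 11 of these 27 genes, and PS medium with doxycycline had 15 above untreated cells.

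Surface ectoderm, placode and neural crest genes were higher in 12 of 28 cases and lower in 3 (median log2 0.15). DLX5, a homeobox factor, was read at 46.4, 53.6 and 50.5 without treatment, 148, 184 and 136 in PS medium and 3657, 3745 and 2998 with doxycycline, 20.3-fold higher (log2 4.34 ± 0.12). MSX2, another homeobox factor and a BMP target, was read at 2246, 2322 and 2909.8 in PS medium and 4370.4, 4687 and 4553 with doxycycline, 1.83-fold higher. The member with the largest fall was EDNRB, an endothelin receptor of neural crest, read at 818, 928 and 1215 without treatment, 338, 245 and 390.0 in PS medium and 72.2, 42.9 and 155 with doxycycline. EDNRB was 3.48-fold lower than in PS medium, which had already lowered it.

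Of the 36 lists, the epithelial list had the highest share of measured members called. Of its 36 measured genes, 26 were higher by limma and 0 lower, with 0 lower also at an unadjusted p under 0.05, and the median was 0.58. PS medium had lowered 17 of them and raised 5. The grainyhead factors, which drive epithelial genes, all rose: GRHL3 by 8.11-fold, GRHL1 by 4.33-fold and GRHL2 by 2.93-fold. GRHL2 was read at 631, 632 and 556 without treatment, 394, 457 and 372 in PS medium and 1116, 1047 and 1562 with doxycycline, so it ended above its starting level. Junction genes rose as well. TJP3, a tight junction scaffold, was 3.12-fold higher, CGN, cingulin, 2.92-fold, and CLDN3, a claudin, 2.64-fold. CDH1, E-cadherin, was read at 3733, 3864 and 3798 untreated, 3228, 2809.7 and 2543 in PS medium and 4124, 3618 and 4962 with doxycycline, 1.47-fold higher with doxycycline than in PS medium. EPCAM, an epithelial adhesion protein, was read at 2912, 3260.4 and 3281 untreated, 2086, 2127 and 2179.9 in PS medium and 3629, 3589.5 and 4474 with doxycycline, 1.81-fold higher. Of 14 keratins, 2 rose and 0 fell by limma, with 1 lower at an unadjusted p under 0.05. Their median log2 difference was 0.002, and over all probe sets 8.29% were called higher and 8.28% lower.

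**Figure D3:**
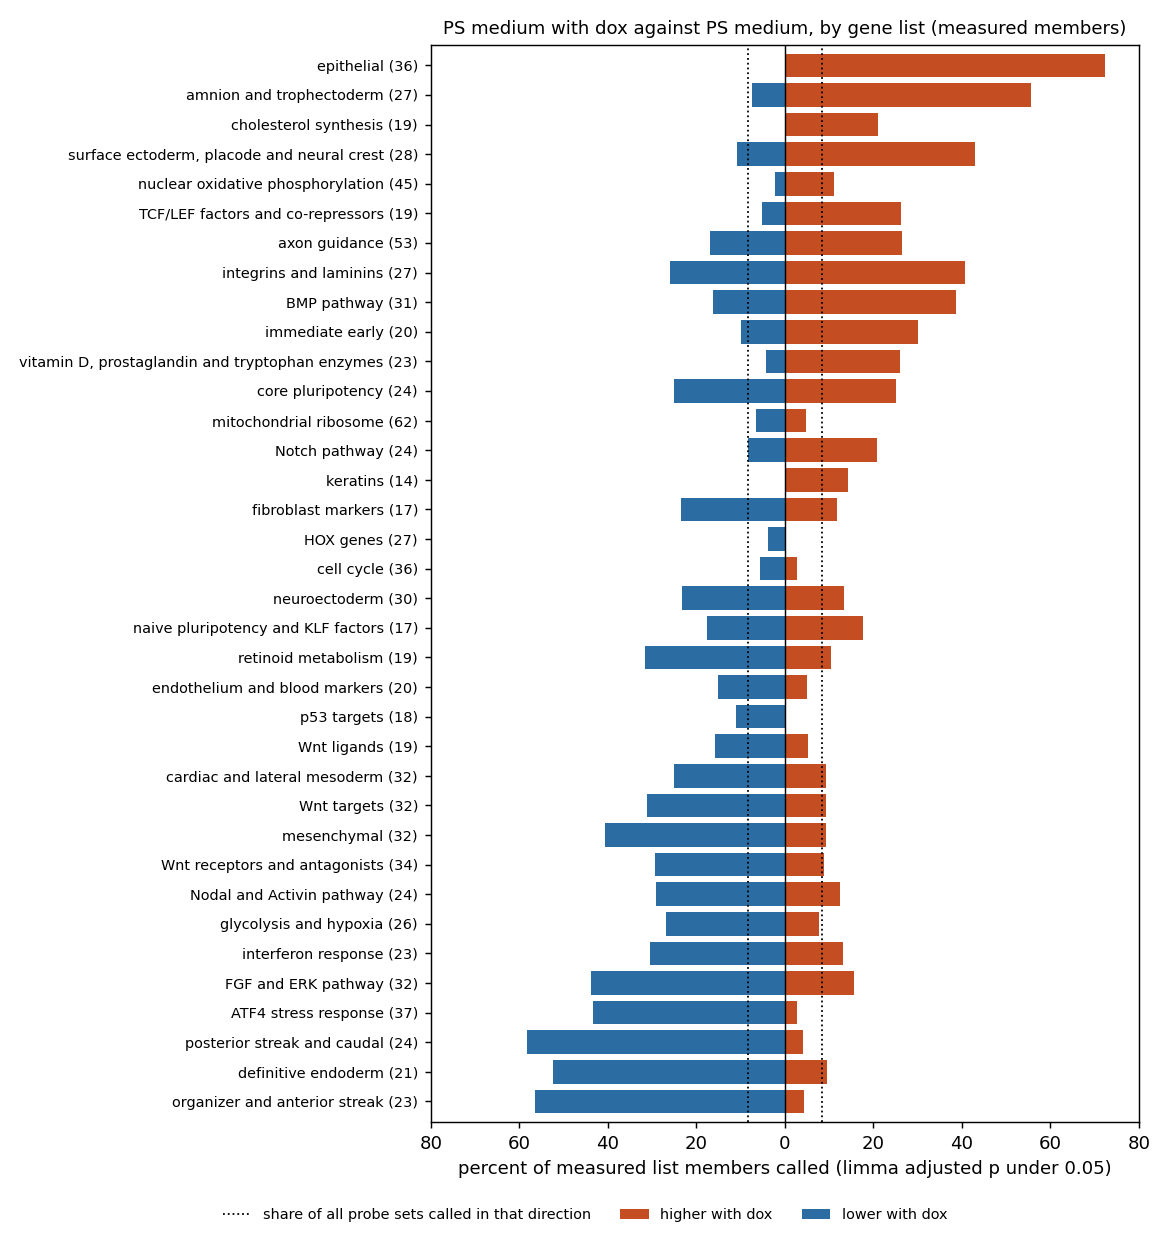
Percent of the measured members of each of 36 gene lists (number measured in brackets) called higher (right) or lower (left) with doxycycline against PS medium, ordered by the median log2 difference; dotted lines mark the 8.29% and 8.28% of all probe sets called in each direction. Epithelial and amnion and trophectoderm genes lie mostly to the right, organizer, endoderm and posterior streak genes mostly to the left.

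Genes of pluripotency did not move as a block. Of 24 core members, 6 were higher and 6 lower with doxycycline (median log2 0.03). SOX2, a core pluripotency factor also used in neural and surface ectoderm, was read at 3898, 4364 and 4562 without treatment, 867, 974 and 579 in PS medium and 3499, 3499.6 and 3711 with doxycycline. SOX2 thus rose 4.46-fold over PS medium (log2 2.16 ± 0.15, adjusted p = 4.84e-06) and its difference from untreated cells was -0.26 on the log2 scale, not called. PRDM14, a repressor of differentiation, was 2.12-fold higher and read at 1006, 974 and 1546 with doxycycline against 978, 1267 and 1095 untreated. Other members went down. OTX2, a homeobox factor of the epiblast and anterior streak, was read at 2328, 2728 and 2782 without treatment, 5116, 5295 and 6478 in PS medium and 1697, 2057 and 1904 with doxycycline, 2.96-fold lower. L1TD1, an RNA-binding protein, was read at 1478, 1584 and 1418 in PS medium and 654, 794 and 693 with doxycycline, 2.07-fold lower and also under untreated cells. ZIC2, a zinc finger factor of epiblast and neural tissue, was read at 4533, 4527 and 4919 untreated, 4399, 4309.9 and 4028 in PS medium and 1887, 1754 and 1247 with doxycycline, 2.63-fold lower than in PS medium. USP44, a deubiquitinase, which PS medium had lowered 5.82-fold, was not called with doxycycline (log2 0.17 ± 0.13). Among 17 naive pluripotency and KLF genes, 3 rose and 3 fell, or 5 and 4 with the replicate number as a block in the fit. Over all probe sets the main fit called 8.29% higher and 8.28% lower. TFCP2L1 was 3.62-fold higher and KLF4 3.23-fold higher, KLF4 being uneven at 227, 368 and 635.

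Among the 184 genes that fell in PS medium and were higher with doxycycline, 102 stayed below untreated cells, 72 were not called against them and 10 were above. For 124 of the 184 the 95% interval of the difference from untreated lay within 2-fold either way. RASGRP1, an activator of RAS, was above: it was read at 345, 344 and 399 without treatment, 91.2, 112 and 85.4 in PS medium and 1124, 1200.4 and 1420.1 with doxycycline. AMOT, angiomotin, a junction protein of the Hippo pathway, was read at 472, 479 and 526 untreated, 175, 183 and 215 in PS medium and 1503, 1473 and 2036 with doxycycline, again above untreated. IDO1, which degrades tryptophan, came back in part, at 1047, 1101 and 1184 untreated, 48.3, 67.3 and 27.6 in PS medium and 217, 206 and 162 with doxycycline, as did the glutamate receptor gene GRIA4, at 520.4, 505 and 509 untreated, 17.9, 25.5 and 22.3 in PS medium and 232, 127 and 112 with doxycycline.

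Within the Wnt pathway, which TCF7L1 acts on, 10 of 32 target genes were lower and 3 higher (median log2 -0.09). The list's median against the PS mean was -0.16, -0.09 and -0.27 on doxycycline arrays 1, 2 and 3. LEF1, a TCF/LEF factor and itself a target, was read at 145, 143 and 124 without treatment, 723, 1292 and 708 in PS medium and 316, 601 and 379.5 with doxycycline, 2.05-fold lower (adjusted p = 0.014). LEF1 missed the threshold without doxycycline replicate 1 (adjusted p = 0.0632). SP5, a zinc finger factor and direct Wnt target, was read at 519, 497 and 549 untreated, 958, 943 and 979 in PS medium and 641, 619 and 643 with doxycycline, 1.5-fold lower on tightly grouped arrays (log2 -0.59 ± 0.07). APCDD1, a Wnt inhibitor, was 2.26-fold lower and DKK4, another, 2.37-fold. AXIN2, the usual reporter of Wnt activity, was read at 392, 487 and 539 in PS medium and 398, 460.5 and 376 with doxycycline, groups that overlap (log2 -0.19 ± 0.12, adjusted p = 0.396). RNF43, a ligase that removes frizzled receptors, rose 1.84-fold. Ligands fell in 3 of 19 cases and rose in 1, against 8.28% lower and 8.29% higher over all probe sets. WNT5A was 2.78-fold lower, WNT3 2.22-fold and WNT8A 2.22-fold, while WNT5B was 1.5-fold higher. WNT3 was read at 282, 318 and 228 without treatment, 4166, 4419.5 and 3800.1 in PS medium and 1894, 2464 and 1342 with doxycycline, so most of its rise over untreated cells remained on the log scale.

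Receptors and antagonists were lower in 10 of 34 cases and higher in 3. FZD7, the main frizzled receptor of human pluripotent cells, was read at 2047, 2536 and 1876 without treatment, 1619, 1839 and 2005 in PS medium and 555, 629.9 and 481 with doxycycline, 3.22-fold lower. ROR2, a receptor for WNT5A, was 3.44-fold lower. SFRP1, a secreted antagonist, was 2.46-fold higher and SFRP2, its relative, 2.38-fold lower. Of 19 TCF/LEF factors and co-repressors, 5 were higher, the induced TCF7L1 among them, and 1, LEF1, lower. With the 2 groups fitted alone 3 were higher. TCF7L2 was read at 2142, 2162 and 2206 untreated, 1067, 1127 and 1148 in PS medium and 2218, 2053 and 2785 with doxycycline, 2.08-fold higher with doxycycline and not called against untreated cells. TLE2, a co-repressor that TCF factors recruit, was read at 586, 709 and 320.3 with doxycycline against 282, 264 and 281 in PS medium.

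Promoter sequence was set beside these values because TCF/LEF factors are known to bind DNA through CTTTGAT and CTTTGAA. RefSeq promoters (GRCh38.p14, 250 bases before to 50 after the start) were held for 14239 of the 18417 genes, and 788 of these (5.53%) had at least 1 match to either motif on either strand. The share was 4.68% of genes lower with doxycycline and 5.14% of genes higher. It was 6.45% (16 of 248) of those raised by PS medium and lower with doxycycline, and 6.58% (5 of 76) of those raised with doxycycline only. A match is a description of these letters in this window. Of 112 named genes with a promoter, 6 had a match: MIXL1, SP5, UPK1B, DACH1, FGF18 and CYP27A1. The promoters of MIXL1 and SP5, which fell, and of FGF18, which rose, are printed to show where the letters lie, with matches in capitals (on the minus strand they read TTCAAAG or ATCAAAG). MIXL1 lies at chr1:226223414-226223713, SP5 at chr2:170715087-170715386 and FGF18 at chr5:171419397-171419696, all on the plus strand.
MIXL1: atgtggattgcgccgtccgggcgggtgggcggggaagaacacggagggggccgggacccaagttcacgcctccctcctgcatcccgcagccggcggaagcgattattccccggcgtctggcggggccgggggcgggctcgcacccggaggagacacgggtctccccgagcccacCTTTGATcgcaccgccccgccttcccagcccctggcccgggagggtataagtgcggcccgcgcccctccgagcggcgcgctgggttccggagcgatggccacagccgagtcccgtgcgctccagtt
SP5: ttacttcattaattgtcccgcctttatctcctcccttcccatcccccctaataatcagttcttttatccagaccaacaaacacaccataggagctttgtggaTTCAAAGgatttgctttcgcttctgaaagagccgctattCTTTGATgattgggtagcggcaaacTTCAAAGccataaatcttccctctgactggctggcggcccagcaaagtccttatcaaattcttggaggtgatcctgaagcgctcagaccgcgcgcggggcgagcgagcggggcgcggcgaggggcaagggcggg
FGF18: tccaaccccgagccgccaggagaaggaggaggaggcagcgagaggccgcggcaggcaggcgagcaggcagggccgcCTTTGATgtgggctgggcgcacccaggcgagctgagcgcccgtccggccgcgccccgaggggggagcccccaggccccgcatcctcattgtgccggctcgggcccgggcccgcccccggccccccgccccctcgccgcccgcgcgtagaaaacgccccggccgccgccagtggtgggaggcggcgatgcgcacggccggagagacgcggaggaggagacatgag
The match of MIXL1 starts 76 bases before the gene's start and that of FGF18 174 bases before it. SP5 holds 3 matches, the farthest starting 148 bases before the start.

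Nodal and Activin genes were lower in 7 of 24 cases and higher in 3, or 11 and 3 with the replicate number as a block. LEFTY1, a Nodal antagonist, was read at 1352, 1860.0 and 2476 in PS medium and 613, 873 and 553 with doxycycline (2.72-fold lower), a value that shared sequence with its near-identical neighbour LEFTY2 makes uncertain. FST, which binds activin, was read at 217, 259.6 and 265 without treatment, 548, 933 and 926 in PS medium and 1768, 2079.9 and 1632 with doxycycline, 2.3-fold higher. TGFB1 and TGFB2, 2 TGF-beta ligands, went apart: TGFB1 was 2.09-fold lower at 1134, 1092 and 1327 against 2400.4, 2194 and 2923, and TGFB2 4.18-fold higher at 315, 308 and 439.8 against 84.4, 74.9 and 57.5.

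BMP pathway genes, of which PS medium had raised 23 of 31, were higher in 12 cases with doxycycline and lower in 5. ID4, a BMP target, was read at 296, 314 and 364 without treatment, 2351, 1871 and 1818 in PS medium and 5616, 5834 and 5774 with doxycycline, 2.86-fold higher. HEY1, a repressor shared by BMP and Notch signalling, was 2.87-fold higher. BMP2, a ligand, was read at 3471, 4445 and 5924 in PS medium and 803, 1438 and 1306 with doxycycline, 3.89-fold lower, unlike BMP4. BMPER, which binds BMPs outside the cell, was 3.36-fold lower and SMAD6, an inhibitory SMAD, 2.18-fold lower. Of the 18 members that PS medium had raised at least 2-fold, 9 rose further, 8 were held within 2-fold and 5 were lower. Over all 559 genes so raised the shares were 9.48%, 36.9% and 59.2%.

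FGF and ERK genes were lower in 14 of 32 cases and higher in 5 (median log2 -0.24), or 9 and 3 with the 2 groups fitted alone. Feedback inhibitors and targets of ERK signalling were among the lower ones. SPRY4, a feedback inhibitor, was read at 4098, 3896 and 3084 without treatment, 3545, 3726 and 3919.7 in PS medium and 1308, 1627 and 892 with doxycycline, 2.98-fold lower. DUSP6, an ERK phosphatase, was read at 3582, 3505 and 2427 untreated, 656, 904 and 421 in PS medium and 238, 281 and 145 with doxycycline, 2.81-fold lower than in PS medium. The ETS factors ETV4 and ETV5 were 2.32-fold and 1.77-fold lower. These 4 genes were all lowest on the third doxycycline array. DUSP6, ETV4 and ETV5 were also lowest on the third PS array, where SPRY4 was highest. Among untreated arrays the third read lowest for SPRY4, DUSP6 and ETV4 and highest for ETV5. FGF18, an FGF ligand, went the other way, at 423, 392 and 397 in PS medium and 2933, 4096 and 774 with doxycycline (5.06-fold higher, adjusted p = 0.00386, and 8.3-fold without the third array). Among 24 Notch genes, 5 rose and 2 fell, against 8.29% higher and 8.28% lower over all probe sets. DLL3, a ligand of the streak, was 2.98-fold lower, and JAG1, another ligand, 1.87-fold higher.

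Enzymes of small signalling molecules changed strongly in single members. Of 23 vitamin D, prostaglandin and tryptophan genes, 6 rose and 1 fell, or 6 and 4 with the block. HPGD, which inactivates prostaglandins, was read at 49.4, 69.6 and 94.9 without treatment, 496, 481 and 782 in PS medium and 7448, 7432 and 8599 with doxycycline, 13.3-fold higher. CYP27A1, which can activate vitamin D, was read at 298, 296 and 618 in PS medium and 83.3, 94.7 and 141 with doxycycline, 3.3-fold lower, opposite to CYP24A1. Of 19 retinoid genes, 2 rose and 6 fell, and 3 were lower without the third doxycycline array or with the 2 groups fitted alone. DHRS3, which returns retinal to retinol, was read at 418, 513 and 489.9 untreated, 140.4, 138 and 133 in PS medium and 707, 737 and 679.7 with doxycycline, 4.72-fold higher with doxycycline than in PS medium.

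Guidance and adhesion genes split by member. Of 53 axon guidance genes, 14 were higher and 9 lower. EFNA1, an ephrin ligand, was read at 130.5, 112 and 134 in PS medium and 778, 730.0 and 824 with doxycycline (5.62-fold higher), while PLXNA2, a semaphorin receptor, and EPHA4, an ephrin receptor, were 3.26-fold and 2.52-fold lower. Of 27 integrins and laminins, 11 were higher and 7 lower. ITGA5, the integrin chain for fibronectin, was read at 791, 844 and 778 without treatment, 3902, 3964 and 4857 in PS medium and 1376, 1476 and 1260.4 with doxycycline, 3.06-fold lower, although its ligand FN1 rose. ITGAV, another integrin chain, was 2.7-fold higher, ITGA3, a laminin-binding chain, 2.14-fold and LAMA5, a basement membrane laminin, 1.8-fold. CDH6, a cadherin, was 6.97-fold higher.

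Metabolic and stress lists moved by smaller amounts. ATF4 stress genes, which serve amino acid supply and tRNA charging, were lower in 16 of 37 cases and higher in 1 (median log2 -0.26). Without the third doxycycline array 11 were lower, with the doxycycline and PS groups fitted alone 9, and with the replicate number as a block 21. PSAT1, an enzyme of serine synthesis, was read at 4091, 4084 and 4291 in PS medium and 2400.3, 2522 and 2271 with doxycycline, 1.73-fold lower. WARS1, a tRNA synthetase, was 1.95-fold lower. The member that rose, 1.99-fold, was SLC7A3, a transporter of cationic amino acids.

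Glycolysis and hypoxia genes were lower in 7 of 26 cases and higher in 2, and 12 were lower without the third doxycycline array and 15 with the block. The list's median against the PS mean was -0.28, -0.48 and -0.04 on doxycycline arrays 1, 2 and 3. HK1, a hexokinase, was read at 2100.4, 2105 and 2083 in PS medium and 1266, 1226 and 1249 with doxycycline, 1.67-fold lower. PDK1, which limits entry of pyruvate into mitochondria, was 2.11-fold lower. Among 19 genes of cholesterol synthesis, 4 were higher and 0 lower by limma, with 0 lower at an unadjusted p under 0.05, after PS medium had lowered 14. TM7SF2, a sterol reductase, was read at 727, 746 and 851 without treatment, 470.4, 517 and 461 in PS medium and 1189.6, 1206 and 1168 with doxycycline, 2.42-fold higher. With the replicate block the count of higher cholesterol genes was 8. Cell cycle genes were called in 3 of 36 cases, 1 higher and 2 lower (2 and 5 with the block), against 16.6% of all probe sets. Of 45 nuclear oxidative phosphorylation genes 5 were higher and 1 lower, or 13 and 1 with the block, and of 62 mitochondrial ribosome genes 3 were higher and 4 lower, or 6 and 5 with the block. Of 23 interferon response genes 7 were lower and 3 higher, and of 20 immediate early genes 6 were higher and 2 lower, or 6 and 4 with the block.

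The third doxycycline array, where TCF7L1 was low, showed a median response close to that of the others. Over the 1613 probe sets called higher, the median excess over the PS mean was 0.54, 0.53 and 0.52 on the log2 scale on doxycycline arrays 1, 2 and 3. Over the 1612 called lower it was -0.55, -0.54 and -0.56. These probe sets were called with all 3 arrays, so the values describe them and test nothing. Without the third array 1526 were higher (7.84%) and 1460 lower (7.5%), of which 1356 and 1302 were among those called with all arrays and 0 of the earlier calls changed sign. Of probe sets changed at least 2-fold, 330 of 331 higher and 296 of 299 lower were still called. Fewer, 287 of the 331 and 270 of the 299, were both called and still changed at least 2-fold. Leaving out doxycycline replicate 1 in its place kept 74.9% of higher and 72.1% of lower calls. For replicate 2 the shares were 79.2% and 80.7%, and for replicate 3 84.1% and 80.8%. Replicate 3 was the doxycycline array nearest the PS mean for 39.5% of higher calls, against 27.2% and 33.3% for replicates 1 and 2. For lower calls these shares were 24.6%, 41.4% and 33.9% for replicates 1, 2 and 3.

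Without that array the classes had similar sizes. Both fits use the same PS and untreated arrays, and all 559 genes raised by PS medium were shared. Overlap was thus favoured in advance, and the counts are a description. Genes raised by PS medium and lower with doxycycline numbered 320, of which 308 were in the class with all arrays, genes held within 2-fold 201 (189 shared), and genes raised with doxycycline only 94 (81 shared). Organizer genes were lower in 11 of 23 cases, posterior streak genes in 12 of 24 and endoderm genes in 10 of 21. Amnion and trophectoderm genes were higher in 14 of 27 cases and epithelial genes in 25 of 36. FGF and ERK genes were lower in 10 of 32.

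Single genes did differ on the third array. Of 328 genes called at least 2-fold higher, 4 were at least 2-fold below both other doxycycline arrays there: TCF7L1, FGF18, CYP24A1 and PPARGC1A, a transcriptional coactivator of mitochondrial genes. PPARGC1A was read at 91.4, 95.3 and 96.9 in PS medium and 1081, 875 and 425 with doxycycline. On doxycycline arrays 1 and 2 the same count was 1 each. In the other direction, 17 genes were at least 2-fold above both other arrays on the third, and 0 on each of the others, a count with no test. NTRK2, a neurotrophin receptor, was read at 72.7, 60.6 and 53.7 in PS medium and 529, 352 and 2078 with doxycycline, and its rise was 9.61-fold, or 5.74-fold without that array. FGF7, an FGF ligand, was read at 39.1, 40.7 and 43.7 in PS medium and 162, 181 and 891 with doxycycline, 5.54-fold higher, or 3.27-fold without it. POSTN, the matrix protein periostin, was read at 63.3, 73.5 and 34.5 in PS medium and 182, 178 and 785 with doxycycline, 4.41-fold higher, or 2.76-fold without it. Of 289 genes called at least 2-fold lower, 1, GAPT, was at least 2-fold below both others on the third array, against 3 on the first and 0 on the second.

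**Figure D4:**
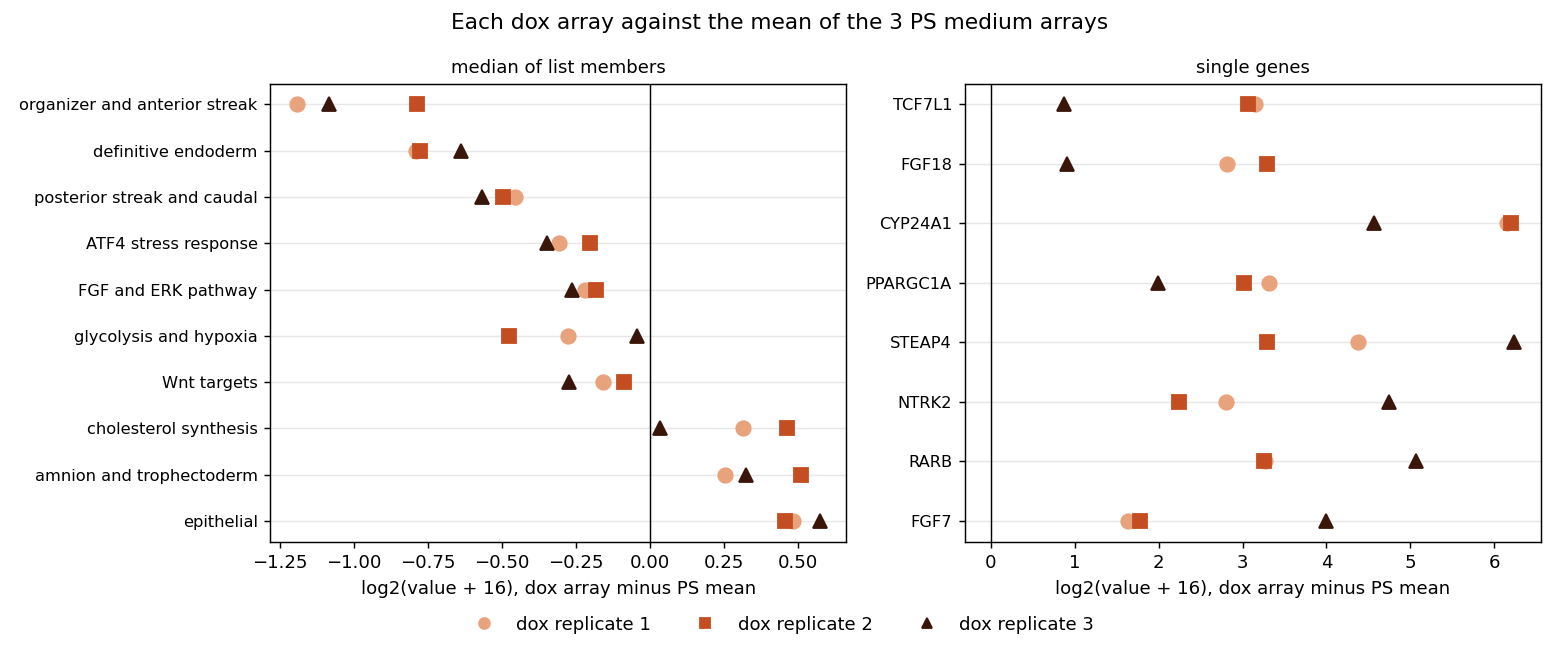
Log2(value + 16) of each doxycycline array minus the mean of the 3 PS arrays, as the median over 10 gene lists (left) and for 8 genes (right), with a marker per replicate. On replicate 3 the streak, endoderm and epithelial lists lie beside the other replicates, and glycolysis and cholesterol lists lie nearer 0. The Wnt target list lies lowest on replicate 3, at -0.27 against -0.16 and -0.09 on replicates 1 and 2. Among the genes TCF7L1, FGF18, CYP24A1 and PPARGC1A lie lower there, and STEAP4, NTRK2, RARB and FGF7 lie higher. The genes and lists shown were chosen after their values were seen.

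Marker genes were summed per array to check the labels and look for other cells. Streak markers summed to 1375 to 1467 in untreated cells, 69377 to 78104 in PS medium and 13166 to 20770 with doxycycline. Markers of pluripotent cells summed to 39391 to 41444, 26836 to 29859 and 34244 to 35741 in the same order, and amnion and trophectoderm markers to 1133 to 1192, 9730 to 12378 and 23847 to 26465. These are sums of deposited intensities, so the brightest gene weighs most. In PS medium and with doxycycline, EOMES made up most of the streak sum and TFAP2A most of the amnion and trophectoderm sum. EOMES alone was read at 50981, 55273 and 57102 in PS medium and 11479, 15554 and 9529 with doxycycline. In whole-dish RNA, fewer cells of a type and less RNA per cell cannot be told apart. Fibroblast markers summed to 5211 to 5362 without treatment, 1896 to 2159 in PS medium and 1418 to 1757 with doxycycline, with 4 of 6 below the median of every array. Endothelium and blood markers summed to 1490 to 1661, 1340 to 1413 and 1190 to 1284 in the same order, also with 4 of 6 below those medians. The part of either cell type in these results was not tested.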

How the data were processed

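Per the labels, RNA was prepared with a Qiagen RNeasy kit and biotin-labelled DNA made from it was hybridised. Each deposited value is the linear intensity of a probe set, made with Affymetrix Expression Console 1.1.1 and PLIER 2.0 per the submitters' processing notes. How background and scale were treated is not given in the sources used here. Gene names came from the platform annotation, and 19429 of 19460 probe sets with 1 symbol were updated by gene ID to RefSeq. Another 1754 had several symbols and 12083 none listed. POU5F1 and NANOG have no probe set of their own and are not analysed here.

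Values were taken as log2(value + 16) with no further normalization, since array medians differed by 0.058. All 9 arrays in 3 groups were fitted with limma 3.58.1 in R 4.3.3 (lmFit, eBayes with trend, 6 residual degrees of freedom), with Benjamini-Hochberg adjustment over all probe sets. Tested on simulated arrays of the doxycycline against PS comparison (19460 probe sets), the fit recovered 96% of 100 changes of 2-fold and 100% of 100 of 4-fold, with 13 false calls. The changed probe sets were drawn among those brighter than the median, with noise drawn independently for each array. Recovery among dimmer genes, or where same-numbered arrays deviate together, was not tested. With 3 arrays per group, their number limits the precision. Deviations of same-numbered doxycycline and PS arrays correlated at 0.25, 0.43 and 0.22, and those of differently numbered arrays at -0.33 to 0.06. Same-numbered arrays thus tended to deviate together. The labels do not say what the numbers mark, so the main fit has no block and the block is an alternative. With it, 4564 probe sets were called with doxycycline against PS medium, and 3225 in the main fit.

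The groups compared, the 36 gene lists and their members were chosen with earlier results of these data known. Named genes were a set of 10, the 10 largest rises and 10 largest falls whose arrays do not overlap, up to 4 called members and up to 2 held members per list. A further 53 genes were cell markers or were chosen after their values were seen. Alternatives were log offsets of 1 and 64, median centring, quantile normalization, leaving out the dimmest 25% of probe sets, 1 probe set per gene, the 2 groups alone, the replicate block, and each array left out in turn.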

Additional observations from a re-analysis of the deposited data

How the results depend on the processing

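No direction reversed, and each count of changed probe sets or genes in a class stayed within 1.5 times its value under every alternative run. Leaving out each array in turn, doxycycline changed 2433 to 3155 probe sets, with 1214 to 1688 higher and 1193 to 1515 lower. The class lower with doxycycline then held 275 to 358 genes, the held class 192 to 223, genes rising further 43 to 55, genes raised with doxycycline only 94 to 108, and genes that fell in PS medium and were higher with doxycycline 165 to 215. The log2 rise of TCF7L1 ranged from 1.97 to 3.11. PS medium against untreated gave 4178 to 5774 calls and doxycycline against untreated 4258 to 6238. With the replicate number as a block, 2297 were higher and 2267 lower; it changed no call of the classes by over 1.5 times, and the list counts it moved by more stand beside them. Fitted alone, the 2 groups gave 1255 higher and 1238 lower, and besides the lists already given the count of higher genes fell to 3 for oxidative phosphorylation, 1 for the mitochondrial ribosome and 1 for glycolysis, and of lower genes to 1 for naive pluripotency, 2 for the mitochondrial ribosome and 1 for the cell cycle. Of 187 named genes called other than TCF7L1, 164 were called under every alternative and 23 were lost under at least 1, 12 of them without the third doxycycline array. Besides those already given, the calls of BAMBI, CDK6, ERG, FGF4, HOXB9, MRPS9, NDUFS4, PLK3, STRA6 and TIE1 were lost without that array; the cause was not tested. The 2 probe sets of NDUFS4 disagreed, as did those of ZEB2. Signals near the offset of 16, such as GATA6 and TBX3 in untreated cells, have folds set largely by that offset.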

Other observations

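Of the 97 genes raised with doxycycline only, 4 are given here that were chosen after their values were seen, with no test of them as a group. ACTG2, an actin of visceral smooth muscle, was read at 336, 703 and 497 without treatment, 195, 454 and 225 in PS medium and 3013, 5185 and 3235 with doxycycline, 12.9-fold higher than in PS medium (limma adjusted p = 2.26e-05). ACTA1, skeletal muscle actin, was read at 1669, 2514 and 1604 in PS medium and 5774, 10999 and 7837 with doxycycline, 4.17-fold higher. ACTA2, actin of vascular smooth muscle, was 3.67-fold higher. NPPB, a natriuretic peptide of heart muscle, was read at 267, 262 and 209 in PS medium and 883, 1620.5 and 1016 with doxycycline, 4.41-fold higher. Actin genes are near-identical to each other in sequence, so probes of ACTA1, ACTA2, ACTG2 and ACTC1 may share signal. The second doxycycline array read highest for ACTG2, ACTA1 and NPPB, and ACTG2 and ACTA1 also read highest on the second array of the untreated and PS groups.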
